A study of Mus musculus with 2 samples.

Results

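Genes of the vascular endothelial growth factor (VEGF) system were followed through CD45+ cells of mouse liver metastases. They were chosen by symbol and comprised 8 of the 56941 features counted: the ligands Vegfa (ENSMUSG00000023951), Vegfb (ENSMUSG00000024962) and Pgf (ENSMUSG00000004791), and the receptors Kdr (ENSMUSG00000062960), Flt1 (ENSMUSG00000029648), Flt4 (ENSMUSG00000020357), Nrp1 (ENSMUSG00000025810) and Tek (ENSMUSG00000006386). All 8 had UMIs (unique molecular identifiers, which count captured RNA molecules) in both libraries. C57BL/6 mice aged 6 to 8 weeks received MC38-LM3b cells, a derivative of the MC38 colorectal cancer line, into the spleen. The tumor cells carried shScramble in the Ctrl group and shSLAMF3 in the KD group. Each group was 1 library from the pooled lesions of 3 mice, taken 2 weeks after injection and enriched for CD45, and therefore no test between Ctrl and KD was possible.

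VEGF-A is the main inducer of vessel growth and of vessel permeability, and is released by tumor cells and by macrophages, often under low oxygen or inflammatory stimuli. It signals in endothelial cells through the tyrosine kinase VEGFR2, the product of Kdr. Flt1 encodes VEGFR1, which binds VEGF-A, VEGF-B and placental growth factor (Pgf) tightly and signals weakly, and whose soluble form acts as a trap for the ligand. Flt4 encodes VEGFR3, the receptor of VEGF-C and VEGF-D, known from lymphatic vessels and also found on fenestrated and liver sinusoidal endothelium. Nrp1 encodes neuropilin-1, a co-receptor of VEGF-A and of class 3 semaphorins that is also made by macrophages, dendritic cells and T cells. Tek encodes TIE2, the angiopoietin receptor, which is known from endothelium and from a subset of monocytes. The libraries read the 3' ends of transcripts, so the splice forms of Vegfa and the soluble and membrane forms of Flt1 could not be told apart.

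After filtering, 9814 Ctrl cells (median 5412 UMIs) and 10185 KD cells (median 4989 UMIs) remained, and 27 barcodes occurred in both libraries. Clusters were named from marker genes, so every class below is "-like", for example macrophage-like, and the suffix is left out. Levels are given as CPM, the UMIs of a gene per 1000000 UMIs summed over the cells of a class. Intervals are 95% and cover counting error only, not the spread between mice. Ly9, which encodes SLAMF3, had 12 Ctrl and 7 KD UMIs in the cluster of tumor or fibroblast cells, too few to check the knockdown. Summed granulocyte markers were higher in other classes of the KD library, with 1021 against 204 CPM in macrophages, 923 against 48.8 in T cells and 1381 against 26.1 in endothelial cells. Their part in the results was not tested.

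The sequences before the transcription starts of 4 members are shown as examples of both sides of the system: Kdr, Flt1 and Tek as receptors with high endothelial levels, and Vegfa as the ligand that lay mainly in macrophages. They were taken from RefSeq on GRCm38.p6, which is not the build of the counts (GRCm39 in the submitters' notes), and each runs 5′ to 3′ over the 250 bases before the start. Kdr lies on the minus strand (chr5:75978456-75978705), as do Flt1 (chr5:147726012-147726261) and Vegfa (chr17:46032378-46032627), and Tek lies on the plus strand (chr4:94739039-94739288). Capitals mark GGAA on either strand, the core bound by ETS factors, in the receptors, and GGGCGG on either strand, the GC box bound by SP factors, in Vegfa.
Kdr: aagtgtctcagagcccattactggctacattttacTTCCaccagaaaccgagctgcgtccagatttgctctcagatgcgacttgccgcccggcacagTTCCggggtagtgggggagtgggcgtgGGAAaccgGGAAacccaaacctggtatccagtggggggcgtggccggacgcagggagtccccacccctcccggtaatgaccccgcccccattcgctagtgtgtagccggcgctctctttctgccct
Flt1: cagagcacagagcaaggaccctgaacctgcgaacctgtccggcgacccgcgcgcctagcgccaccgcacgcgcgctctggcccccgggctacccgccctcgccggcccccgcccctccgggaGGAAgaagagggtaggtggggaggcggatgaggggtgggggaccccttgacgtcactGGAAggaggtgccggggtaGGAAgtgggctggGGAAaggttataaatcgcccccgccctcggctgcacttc
Tek: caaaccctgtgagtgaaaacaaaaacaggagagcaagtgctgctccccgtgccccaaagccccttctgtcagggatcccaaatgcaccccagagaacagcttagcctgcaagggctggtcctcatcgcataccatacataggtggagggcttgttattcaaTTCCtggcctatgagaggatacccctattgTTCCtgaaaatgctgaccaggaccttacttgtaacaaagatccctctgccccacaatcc
Vegfa: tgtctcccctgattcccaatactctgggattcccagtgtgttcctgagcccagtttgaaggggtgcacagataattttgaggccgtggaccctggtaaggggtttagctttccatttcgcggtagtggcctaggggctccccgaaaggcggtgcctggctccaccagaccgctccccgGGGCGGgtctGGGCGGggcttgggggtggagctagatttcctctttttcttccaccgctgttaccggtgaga
GGAA occurred 4 times before Kdr, 4 times before Flt1 and 2 times before Tek, and 6 times before Vegfa. It was found in 93.4% of the 27018 mouse promoter windows of this length, with a median of 3 matches, so its presence did not set these genes apart. GGGCGG occurred 2 times before Vegfa, 2 times before Kdr, 3 times before Flt1 and 0 times before Tek, and was found in 33.0% of windows. Neither motif separated the ligand from the receptors. The Flt1 window also held TATAAA once, as did 12.98% of windows. ACGTG, the core of the hypoxia response element, was in none of the 8 members' windows and in 16.5% of all windows, which says only that these letters were not in the stretches searched.

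**Figure D1:**
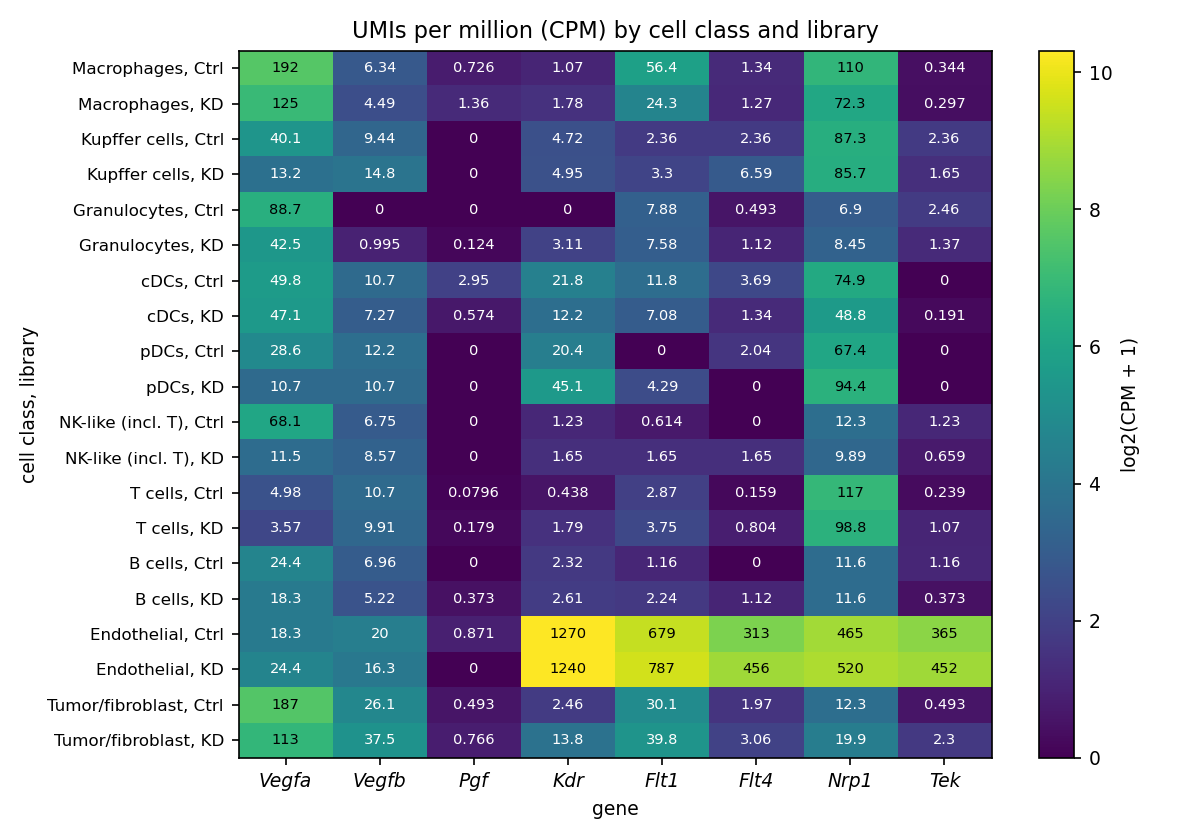
Level of each member in CPM (printed in the cells, with color on the log2(CPM + 1) scale) for 10 cell classes in the Ctrl and KD libraries. Kdr, Flt4 and Tek were high in endothelial cells alone, Vegfa was high in macrophages and tumor or fibroblast cells, and Nrp1 was spread over macrophages, T cells, dendritic cells and endothelial cells.

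Vegfa transcripts lay mainly in macrophages. Macrophages were 41.7% of Ctrl cells and held 81.0% of the 6208 Vegfa UMIs, and they were 29.5% of KD cells and held 73.9% of the 3983 Vegfa UMIs. The level in macrophages was 192 CPM (187 to 198; 5029 UMIs in 4097 cells) in Ctrl and 125 CPM (120 to 129; 2943 UMIs in 3000 cells) in KD, a log2 ratio of KD over Ctrl of -0.62 (-0.69 to -0.56). Tumor or fibroblast cells had a like level, with 187 CPM (169 to 207) in 161 Ctrl cells and 113 CPM (95.8 to 133) in 95 KD cells. In both libraries the intervals of these classes overlapped, and in both classes the KD level was lower.

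Granulocytes were lower, with 88.7 CPM (76.2 to 103) in Ctrl and 42.5 CPM (38.1 to 47.3) in KD, a log2 ratio of -1.06 (-1.33 to -0.79). The scaling of libraries by TMM, a trimmed mean over genes, shifted all granulocyte ratios by -0.10 and those of tumor or fibroblast cells by 0.15, which took Vegfa to -1.16 and from -0.72 to -0.57. Granulocyte sub-clusters differed in size between the libraries. The one led by Cxcl10 and Ifit2, with 407 Ctrl and 100 KD cells, was at 124 and 87.9 CPM, a log2 ratio of -0.50 (-1.25 to 0.19), and the one led by Saa3, with 77 and 875 cells, was at 80.3 and 62.3 CPM, a ratio of -0.36 (-1.21 to 0.62). The one led by Cxcl3 and Lypd6b, with 217 and 540 cells, had a ratio of -0.68 (-1.29 to -0.06). The part of this mix in the granulocyte difference was not tested.

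Classical dendritic cells were at 49.8 CPM in Ctrl and at 47.1 in KD, a log2 ratio of -0.08 (-0.39 to 0.23) whose interval held 0. The lowest levels were in T cells, with 4.98 CPM (125 UMIs) in Ctrl and 3.57 CPM (40 UMIs) in KD. Endothelial cells, which held most Kdr UMIs, themselves had only 21 Ctrl and 105 KD Vegfa UMIs, at 18.3 CPM (11.3 to 28.0) and 24.4 CPM (19.99 to 29.6).

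Among T, B and natural killer (NK) cells of the Ctrl library, NK cells had the highest Vegfa level. Their cluster, which also held Lef1 and Tcf7 positive T cells, had 68.1 CPM (111 UMIs in 58 of 437 cells) in Ctrl against 11.5 CPM (35 UMIs in 27 of 737 cells) in KD, a log2 ratio of -2.56 (-3.15 to -2.002). The sub-cluster led by the NK receptor genes Klra4 and Klra8 and by Prf1, the gene of perforin, carried most of these UMIs, with 150 CPM (90 UMIs in 151 cells) in Ctrl and 44.2 CPM (22 UMIs in 114 cells) in KD. Its log2 ratio was -1.77 (-2.51 to -1.08), nearer to 0 than that of the whole cluster, with overlapping intervals. Past 2-fold, Vegfa was the 1 member that was lower of the 3 tested in NK cells, where 1.92% of all genes tested were lower and 2.36% higher. An unnamed cluster led by Ifng, Gzma and Xcl1 was at 107 CPM in Ctrl and 50.04 in KD.

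Kupffer cells, the resident macrophages of the liver, had 40.1 CPM (17 UMIs in 48 cells) in Ctrl against 13.2 CPM (8 UMIs in 83 cells) in KD. B cells had 24.4 and 18.3 CPM, and plasmacytoid dendritic cells had 14 and 5 UMIs. All these levels were below that of macrophages in the same library, with no overlap of the intervals. Of the 2 members tested in Kupffer cells Vegfa was past 2-fold lower, as were 4.37% of all genes tested, and 4.79% were higher. None of the 3 members tested in B cells was past 2-fold, where 3.07% of genes were higher and 2.24% lower.

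**Figure D2:**
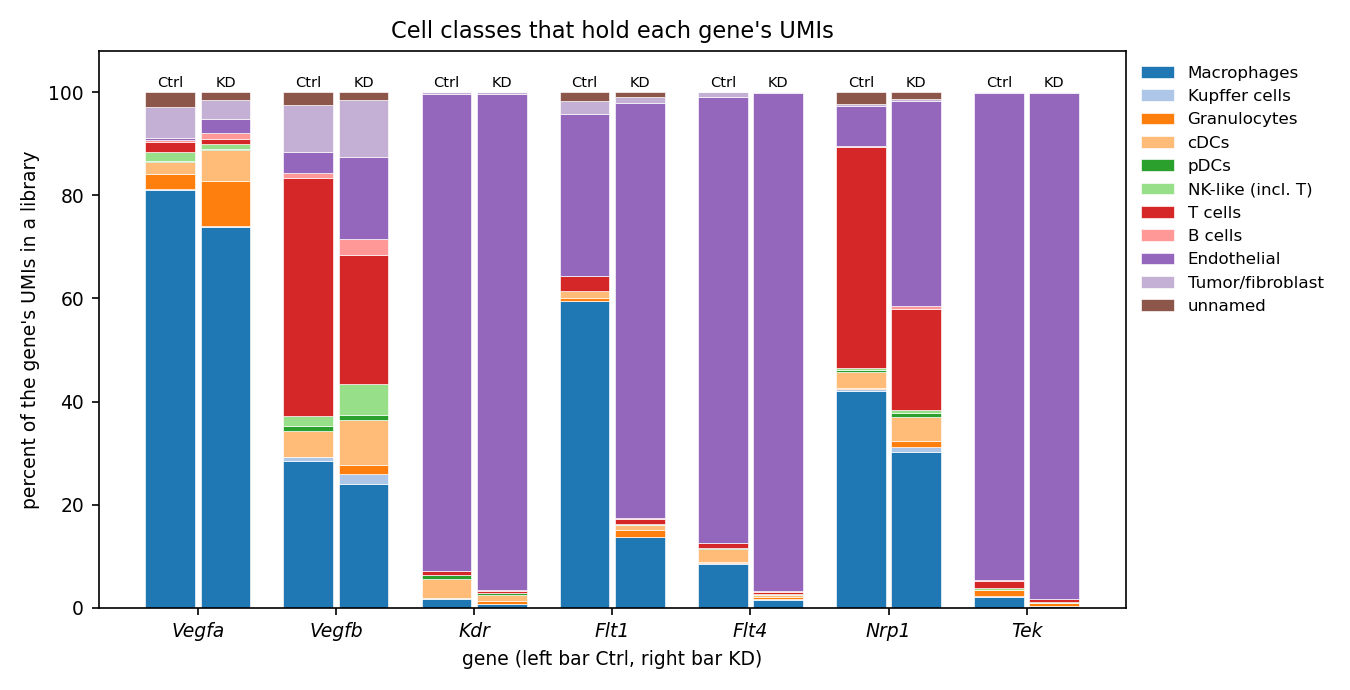
Share of each gene's UMIs (percent, stacked) held by each cell class in Ctrl (left bar) and KD (right bar), with Pgf left out because it had 31 and 41 UMIs. Macrophages held 81.0% and 73.9% of Vegfa UMIs, endothelial cells held 92.5% and 96.2% of Kdr UMIs, and the share of Flt1 in endothelial cells was 31.4% in Ctrl and 80.5% in KD.

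Vegfa UMIs were detected in a minority of macrophages. No Vegfa UMI was found in 58.0% of Ctrl and 64.6% of KD macrophages, while the 410 Ctrl and 300 KD macrophages with the most Vegfa UMIs, 1 in 10 of each library, held 54.6% and 59.6% of them. Ranking cells on these same UMIs puts the share above 1 in 10 by itself. No share expected from sampling and depth was computed, and a cell without a UMI can still hold the transcript. After each cell was thinned to 1500 UMIs, 21.1% (19.8 to 22.4) of 3805 Ctrl and 13.5% (12.3 to 14.8) of 2886 KD macrophages had a Vegfa UMI, against 0.462% of 3033 Ctrl and 0.383% of 1568 KD T cells. Before thinning, a Vegfa UMI was seen in 41.96% of Ctrl and 35.4% of KD macrophages, whose median depth was 5569 and 7436 UMIs, and in 2.86% and 2.17% of T cells, whose median depth was 6604 and 5582 UMIs.

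Vegfa varied widely among macrophage sub-clusters. The sub-cluster led by Il1rn, Ly6i, Nos2 and Il1b, genes of inflammatory activation, had the highest level, with 310 CPM (2799 UMIs) in Ctrl and 292 CPM (814 UMIs) in KD, and its log2 ratio of -0.09 (-0.20 to 0.03) held 0. This sub-cluster was 32.6% of Ctrl and 11.7% of KD macrophages. Cells led by Mmp12, Ccl8 and Mgl2, with C1q genes among their markers, were at 137 CPM in Ctrl and 102 CPM in KD, a log2 ratio of -0.42 (-0.56 to -0.29), and were 21.1% of Ctrl and 34.8% of KD macrophages.

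Of the groups large enough to compare (50 or more cells in both libraries), the one led by Lcn2, Chil3 and Vcan had the lowest level, at 75.1 CPM in Ctrl and 43.7 CPM in KD. Cycling macrophages had 87.0 and 56.3 CPM. A shallow sub-cluster led by Cadm1, Psd3 and Nrg2 had 225 and 184 CPM, a log2 ratio of -0.29 (-0.55 to -0.03). The sub-cluster led by Ltc4s, Cxcl3 and Pf4 held 16 Ctrl and 532 KD cells, and had 123 CPM (15 UMIs) and 153 CPM (714 UMIs). The log2 ratios of the 6 large sub-clusters ran from -0.09 to -1.05, with 0 outside the interval in 5 of them, and the last value came from cells that also held T cell and granulocyte genes.

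When the KD levels of the sub-clusters were weighted by the Ctrl make-up of macrophages, the log2 ratio of Vegfa was -0.24 in place of -0.62. At a finer sub-clustering it was -0.35. The macrophage ratio was thus nearer to 0 with the mix of sub-clusters held equal. Over all filtered cells Vegfa was 96.6 CPM in Ctrl and 64.6 CPM in KD, a log2 ratio of -0.58 (-0.64 to -0.52), and at the Ctrl make-up of classes it was -0.65. Over all filtered cells 3 of the 8 members were past 2-fold higher (Kdr, Flt4 and Tek) and none lower, against 4.11% and 1.75% of all genes tested. These 3 lay mainly in endothelial cells, which held 1.79% of all Ctrl and 6.96% of all KD UMIs. Within endothelial cells none of the 3 was past 2-fold. In tumor or fibroblast cells 1 of 5 tested members was past 2-fold, Kdr with 5 Ctrl and 18 KD UMIs, of which 14 KD UMIs were in 1 cell, while 2.22% of genes were higher and 8.39% lower there.

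**Figure D3:**
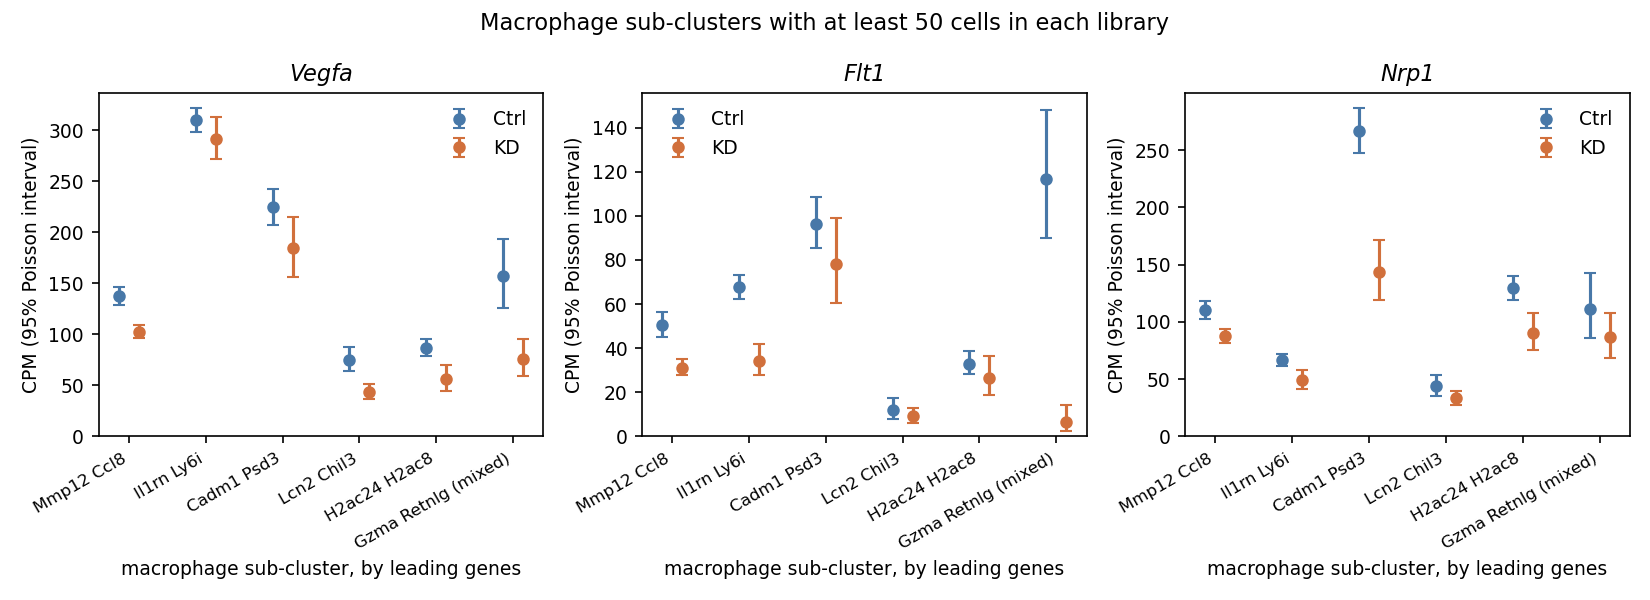
Vegfa, Flt1 and Nrp1 levels in CPM (points, with 95% Poisson intervals) in the 6 macrophage sub-clusters with 50 or more cells in both libraries, named by their leading genes, for Ctrl and KD. Vegfa ran from 310 and 292 CPM in the Il1rn and Ly6i sub-cluster to 75.1 and 43.7 CPM in the Lcn2 and Chil3 sub-cluster, and the Cadm1 and Psd3 sub-cluster had the highest Nrp1 level in both libraries.

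The other ligands were sparse. Vegfb, whose product binds VEGFR1 and neuropilin-1 and is linked to fatty acid handling, had 582 Ctrl and 443 KD UMIs in all. It was 10.7 CPM in Ctrl and 9.91 CPM in KD T cells, which held 46.2% and 25.1% of its UMIs, and 6.34 and 4.49 CPM in macrophages. The log2 ratio was -0.11 (-0.44 to 0.21) in T cells and -0.50 (-0.86 to -0.14) in macrophages. Tumor or fibroblast cells had the highest level, with 26.1 CPM (19.6 to 34.2) and 37.5 CPM (27.8 to 49.6), and endothelial cells had 20.03 CPM (12.7 to 30.1) and 16.3 CPM (12.7 to 20.6), so that the 2 classes overlapped in Ctrl and not in KD. Granulocytes had 0 Vegfb UMIs in Ctrl, which at a bound of 3 counts, not the Poisson interval, stands for up to 1.48 CPM, and 8 in KD.

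Pgf, the placental growth factor gene, had 31 Ctrl and 41 KD UMIs over all cells. Of these, 19 and 32 were in macrophages, at 0.726 and 1.36 CPM, and 8 and 3 were in classical dendritic cells. Endothelial cells had 1 and 0. The log2 ratio was 0.90 (0.04 to 1.80) in macrophages and -2.36 (-4.91 to -0.30) in classical dendritic cells, both from few UMIs, and over all filtered cells it was 0.46 (-0.25 to 1.18).

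Kdr, Flt4 and Tek were concentrated in endothelial cells. These were 150 Ctrl cells (1.53% of the library) and 646 KD cells (6.34%), and since the cells were enriched for CD45 their share depends on how many passed the enrichment. All 10 endothelial markers were detected, summed to 8818 and 10355 CPM. Stab2, a scavenger receptor of liver sinusoids, was at 1711 and 2848 CPM, Clec4g at 1493 and 1727 CPM, and the hyaluronan receptor gene Lyve1 at 299.5 and 690 CPM. The list of sinusoidal markers summed to 5864 and 7632 CPM, and the list of continuous vascular markers to 1667 and 1021 CPM, with Selp (P-selectin) at 471 and 165. The part of these shifts in the receptor differences was not tested. The lymphatic markers Pdpn, Mmrn1 and Ccl21a were at 0 UMIs in Ctrl and at 1, 7 and 2 in KD, and Prox1 had 20 and 29 UMIs. Ptprc, which encodes CD45, was at 98.4 and 121 CPM in endothelial cells and at 948 and 1081 CPM in T cells.

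The level of Kdr in endothelial cells was 1270 CPM (1206 to 1337; 1459 UMIs) in Ctrl and 1240 CPM (1207 to 1274; 5330 UMIs) in KD. Its log2 ratio of -0.03 (-0.12 to 0.05) held 0. A sub-cluster of 9 Ctrl and 22 KD cells was at -0.65 (-1.04 to -0.24) and shallow cells were at 1.05 (0.009 to 2.31), while the other sub-clusters held 0. Over all filtered cells Kdr was 24.6 and 89.8 CPM, a log2 ratio of 1.87 (1.79 to 1.95), and the share of endothelial cells was also higher in KD. Among 1500 UMIs per cell, Kdr was found in 81.3% (73.3 to 87.8) of 123 Ctrl and 79.3% (75.7 to 82.5) of 564 KD endothelial cells, against 0.0659% and 0.128% of T cells, at median depths of 7080 and 6228 UMIs in endothelial cells and 6604 and 5582 in T cells. Before thinning these shares were 84.0% and 89.8% in endothelial cells.

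Flt1 in endothelial cells was 679 CPM (632 to 729) in Ctrl and 787 CPM (761 to 814) in KD, a log2 ratio of 0.21 (0.10 to 0.33). Flt4 had the widest difference of the receptors there, with 313 CPM (281 to 347) in Ctrl and 456 CPM (436 to 477) in KD, a log2 ratio of 0.55 (0.38 to 0.71). Tek was 365 CPM (331 to 402) in Ctrl and 452 CPM (432 to 473) in KD, a log2 ratio of 0.31 (0.16 to 0.47). Nrp1 was 465 CPM (426 to 506) and 520 CPM (498 to 542), a log2 ratio of 0.16 (0.02 to 0.30). None of the 7 members with at least 20 UMIs in endothelial cells was past 2-fold, where 4.81% of the 11361 genes with as many UMIs were past 2-fold higher and 3.57% were past 2-fold lower.

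The sinusoidal sub-cluster, with 58 Ctrl and 373 KD cells, had a Flt4 difference of the same size and none beyond counting error for Nrp1. There Flt4 was 372 CPM in Ctrl and 542 CPM in KD, a log2 ratio of 0.54 (0.31 to 0.78), and Flt1 was 767 and 894 CPM, a log2 ratio of 0.22 (0.06 to 0.39). Kdr was 1507 and 1460 CPM. The log2 ratios of Nrp1, -0.06 (-0.25 to 0.13), and Tek, 0.15 (-0.06 to 0.37), held 0. A sub-cluster of 15 Ctrl and 84 KD cells also carried granulocyte, macrophage and T cell genes, and without it the log2 ratio of Flt4 was 0.60 and that of Nrp1 0.20. At the Ctrl make-up of sub-clusters the ratio was 0.48 for Flt4, 0.31 for Flt1, 0.21 for Tek and -0.02 for Nrp1, and at a finer sub-clustering it was 0.37 for Flt4 and -0.09 for Nrp1. At the KD make-up of the finer sub-clusters, Flt4 was 0.26 and Nrp1 -0.59. That weighting put Ctrl Nrp1 at 782 CPM, against 526 CPM at the KD make-up of the coarser sub-clusters. The weighted ratios have no interval, and the smallest coarser sub-cluster had 4 Ctrl cells.

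**Figure D4:**
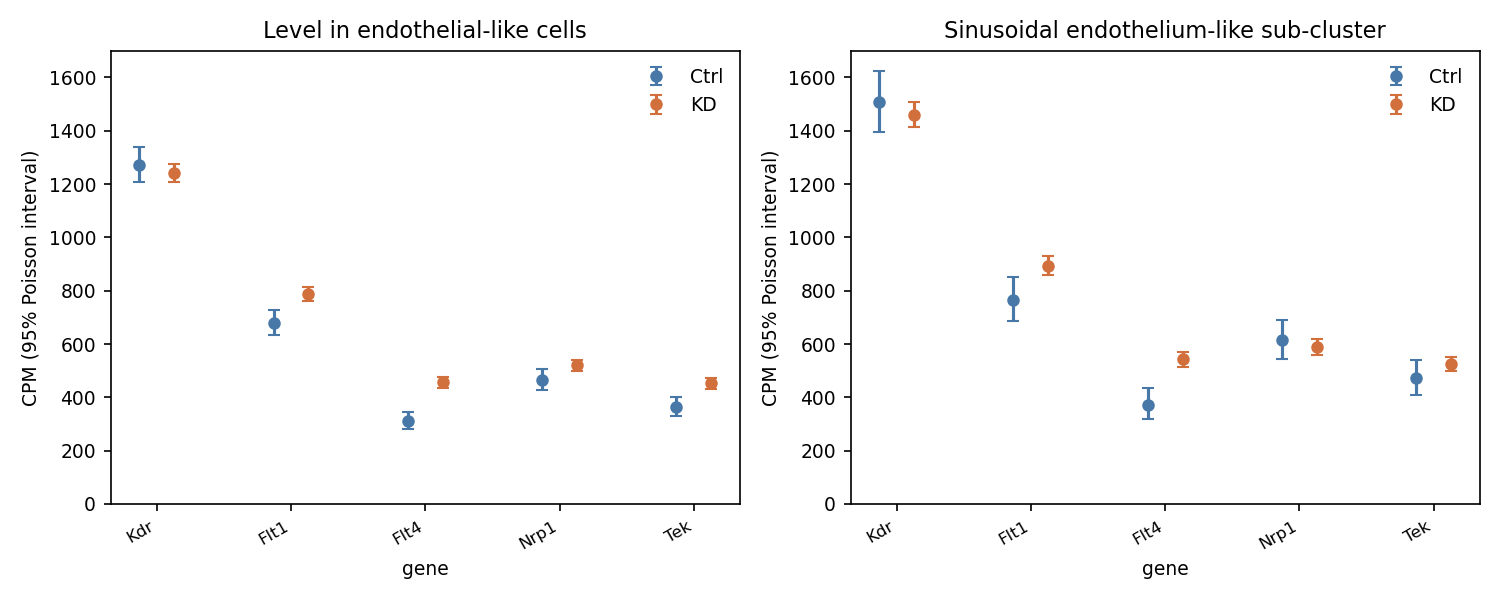
Level of the 5 receptor genes in CPM (points, with 95% Poisson intervals) in all endothelial cells (left) and in the sinusoidal sub-cluster (right) for Ctrl and KD. The Ctrl and KD intervals overlap for Kdr and are apart for Flt4 in both panels.

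Cells led by Cxcl10, Egr1 and Sele formed an endothelial sub-cluster of 40 Ctrl and 19 KD cells. It had Kdr at 1403 and 1283 CPM, Flt1 at 840 and 990.5 CPM, and Nrp1 at 400.4 and 367.5 CPM. All of its receptor ratios held 0. Shallow endothelial cells, with a median of 994 UMIs, had lower levels of each receptor than endothelial cells as a whole, for example Kdr at 343 CPM (8 UMIs) and 709 CPM (88 UMIs). Their ratios of Kdr, Flt1 and Flt4 were above 0 with 0 outside the interval, from 8, 2 and 2 Ctrl UMIs.

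The receptors were found together about as often as separate detection gave. In thinned endothelial cells, 47.2% of Ctrl and 53.2% of KD cells had both Kdr and Flt1, where the product of the single shares was 46.9% and 53.0%. The pairs furthest from their product were in Ctrl. Flt1 and Flt4 were below it, at 20.3% against 24.4%, and Kdr and Nrp1 above it, at 41.5% against 38.3%. All 5 receptor genes were seen in 2.44% and 7.27% of cells and none in 4.07% and 2.13%, and no product was computed for these shares.

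Flt1 was the member with the largest difference in macrophages. It had 56.4 CPM (53.5 to 59.3; 1476 UMIs) in Ctrl against 24.3 CPM (22.4 to 26.4; 574 UMIs) in KD macrophages, a log2 ratio of -1.21 (-1.35 to -1.07). It was the only 1 of the 7 members with at least 20 UMIs in macrophages that was past 2-fold, and it was lower, as were 1.74% of the 15887 genes with as many UMIs, while 1.84% were past 2-fold higher. Endothelial RNA freed into the droplets can add receptor UMIs to other classes. At the ratio of Flt1 to Stab2, Clec4g and Gpr182 in endothelial cells, the UMIs of those 3 genes in macrophages stood for 8.88 of the 1476 Ctrl and 28.0 of the 574 KD Flt1 UMIs. These 3 genes were picked after their values were seen, and the whole list of 10 endothelial markers went the other way, summed to 223 CPM in Ctrl and 111 CPM in KD macrophages. Its part in the Flt1 difference was not tested.

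Within the 6 large macrophage sub-clusters the Flt1 ratio was below 0 with 0 outside the interval in 3. The inflammatory sub-cluster had 67.6 CPM in Ctrl against 34.1 CPM in KD, a log2 ratio of -0.99 (-1.32 to -0.67), and the Mmp12 and Ccl8 sub-cluster had 50.5 and 31.2 CPM, a log2 ratio of -0.70 (-0.93 to -0.46). In the Cadm1 and Psd3 sub-cluster the levels were 96.4 and 78.1 CPM, and the ratio of -0.30 (-0.71 to 0.09) held 0, as did those of the Lcn2 and Chil3 sub-cluster, -0.41 (-1.21 to 0.40), and of cycling macrophages, -0.32 (-0.88 to 0.20). The widest gap, 117 against 6.50 CPM, was in the sub-cluster of 53 Ctrl and 69 KD cells that also held T cell genes. Without the sub-clusters that held genes of another class the log2 ratio for macrophages was -1.14, and at the Ctrl make-up of sub-clusters it was -0.74 and at the KD make-up -0.83, which became -0.90 and -1.31 at a finer sub-clustering. The opposite held over all filtered cells, where Flt1 was 38.7 CPM in Ctrl and 68.1 CPM in KD, a log2 ratio of 0.82, and -0.46 at the Ctrl and -0.09 at the KD make-up of classes. Tumor or fibroblast cells had 30.1 and 39.8 CPM, with a log2 ratio of 0.41 (-0.16 to 0.96).

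Nrp1 was shared between endothelial, myeloid and T cells. Macrophages had 110 CPM (106 to 114) in Ctrl against 72.3 CPM (68.9 to 75.8) in KD, a log2 ratio of -0.61 (-0.70 to -0.52). In 4 of the 6 large sub-clusters the ratio was below 0 with 0 outside the interval. It held 0 in the Lcn2 and Chil3 sub-cluster, -0.40 (-0.80 to 0.01), and in the one that also held T cell genes, -0.36 (-0.85 to 0.14). At the Ctrl make-up of sub-clusters the log2 ratio of macrophages was -0.54, and at the KD make-up of finer sub-clusters -0.32. The Cadm1 and Psd3 sub-cluster had the highest level, 267 and 143 CPM, and the Lcn2 and Chil3 sub-cluster the lowest, 43.8 and 33.2 CPM.

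T cells held 42.9% of Nrp1 UMIs in Ctrl and 19.7% in KD, and endothelial cells 7.77% and 39.7%. The level in T cells was 117 CPM (113 to 122; 2949 UMIs) in Ctrl and 98.8 CPM (93.1 to 105; 1107 UMIs) in KD, a log2 ratio of -0.25 (-0.35 to -0.15). Among T cell sub-clusters with at least 20 Nrp1 UMIs the ratio ran from -0.69 (-1.15 to -0.24) to 0.20 (-0.14 to 0.55). The highest Ctrl level among them was 231 CPM (134 UMIs), against 146 CPM (24 UMIs) in KD, a ratio of -0.67 (-1.36 to -0.03). The part of the sub-cluster mix in the T cell ratio was not tested. Kdr was the 1 of 5 tested members past 2-fold in T cells, and higher, with 11 and 20 UMIs where the endothelial markers stood for 17.5 and 27.4, against 2.43% of genes higher and 1.29% lower. Neuropilin-1 is known as a marker of thymus-derived regulatory T cells, but here the sub-cluster with Foxp3, Il2ra and Il10 had 64.7 CPM (39 UMIs) in Ctrl against 59.4 CPM (47 UMIs) in KD. That was below the CD4+ sub-cluster led by Tnfsf8, Cd4 and Cd40lg, at 167 CPM (93 UMIs) and 191 CPM (302 UMIs). The sub-cluster led by Serpinb9b, Ccl3 and Ccl4 had 137 and 125 CPM. Cells led by Aff3, Tcf7 and Dapl1 had 174 and 150 CPM.

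Plasmacytoid dendritic cells had Nrp1 at 67.4 CPM (33 UMIs) in Ctrl and 94.4 CPM (44 UMIs) in KD, and Kupffer cells at 87.3 and 85.7 CPM. In classical dendritic cells it was 74.9 and 48.8 CPM, a log2 ratio of -0.62 (-0.89 to -0.35), and it was -0.20 when cells were put into classes one by one from their markers. None of 5 tested members was past 2-fold in classical dendritic cells, where 3.05% of genes were higher and 1.49% lower. Granulocytes and B cells were low, at 6.90 and 8.45 CPM and at 11.6 CPM in both libraries.

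Kdr was also present at low levels in dendritic cells. Classical dendritic cells had 21.8 CPM (59 UMIs in 34 of 380 cells) in Ctrl against 12.2 CPM (64 UMIs in 45 of 579 cells) in KD, and plasmacytoid dendritic cells 20.4 CPM (10 UMIs in 7 cells) and 45.1 CPM (21 UMIs in 10 cells). A Kdr UMI was seen in 8.95% and 7.77% of classical dendritic cells, at median depths of 6396 and 8399 UMIs, and in 0.311% and 0.866% of T cells, at 6604 and 5582 UMIs. At the endothelial ratio of Stab2, Clec4g and Gpr182 to Kdr, 3.38 and 13.1 UMIs in classical and 0.307 and 1.58 UMIs in plasmacytoid dendritic cells would have come from endothelial RNA. By the same count, 16.6 of 28 Ctrl UMIs in macrophages and more than the 42 UMIs seen in KD macrophages would have. In T cells, too, the count exceeded the Kdr UMIs seen. Whether Kdr UMIs outside endothelial cells came from endothelial RNA was not tested. The sub-cluster of classical dendritic cells led by Cd209a and Cd7 had 39.1 CPM (36 UMIs) in Ctrl against 14.9 CPM (30 UMIs) in KD, that with Clec9a and Xcr1 had 4.11 CPM (2 UMIs) and 4.89 CPM (5 UMIs), and the Fscn1 sub-cluster had 44.8 CPM (7 UMIs) and 39.4 CPM (10 UMIs).

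The ratio of Kdr in classical dendritic cells, -0.83 (-1.36 to -0.30), became -0.15 with classes set cell by cell and -1.54 after thinning. In plasmacytoid dendritic cells it was 1.14 with an interval that held 0 (-0.01 to 2.39), and -0.39 after thinning. It was the 1 of 2 tested members past 2-fold there, against 3.61% of genes higher and 3.14% lower. Tek and Flt4 were nearly absent outside endothelium, with 9 and 7 Tek UMIs and 35 and 30 Flt4 UMIs in macrophages. Granulocytes of the KD library had 25 Kdr UMIs against 0 in Ctrl. The count above would assign 28.5 to endothelial RNA, which was not tested. Kdr (higher) and Vegfa (lower) were the 2 of 4 tested members past 2-fold in granulocytes, where 7.61% of 10402 genes were past 2-fold higher and 6.4% lower. With TMM scaling the numbers of such genes went from 792 higher and 666 lower to 610 higher and 837 lower.

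Genes around the VEGF system were read from 7 lists of 74 genes. In macrophages none of the 14 genes of the low-oxygen response was past 2-fold in either direction, and their median log2 ratio was -0.27, against -0.04 over all genes. Slc2a1, the glucose transporter gene, was 228 CPM in Ctrl and 151 CPM in KD, and Hif1a, the oxygen-sensing factor, was 456 and 347 CPM. P4ha1, a collagen hydroxylase gene, was 184 CPM in both libraries. The plexin genes Plxna4 and Plxnd1, which encode semaphorin receptors, were the 2 of 5 further receptor genes past 2-fold, with Plxna4 at 1.03 CPM in Ctrl and 3.22 in KD and Plxnd1 at 11.6 and 24.8, where 1.84% of all macrophage genes tested were higher and 1.74% lower. Of 23 genes of VEGF receptor signaling, none was past 2-fold by the measure with 0.5 CPM added.

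In endothelial cells the adhesion genes induced by inflammatory activation were lower in KD. Sele (E-selectin) was 143 and 41.9 CPM, a log2 ratio of -1.77 (-2.08 to -1.46), Vcam1 was 600 and 226 CPM, and Icam1 was 237 and 117 CPM. These 3 were past 2-fold lower of the 8 tested genes of the activation list, and 1 was past 2-fold higher, Kcne3, with 0 Ctrl and 36 KD UMIs, beside 3.57% of all genes tested lower and 4.81% higher. The sub-cluster led by Cxcl10, Egr1 and Sele was 40 of 150 Ctrl and 19 of 646 KD endothelial cells, and its part in these differences was not tested. Of genes known from growing vessel tips, Dll4 was at 81.0 and 72.1 CPM and Esm1 at 30.5 and 55.6 CPM. Cxcl10, a chemokine that inhibits vessel growth, was 999.6 and 182 CPM, and Thbs1, which encodes the inhibitor thrombospondin-1, was 16.5 and 69.8 CPM. Of 14 genes of the low-oxygen response 2 were past 2-fold higher, Egln3 with 3 and 43 UMIs and Ankrd37 with 7 and 76, beside the same 4.81% of all genes. In macrophages, Cxcl10 was 1289 and 496 CPM and the related Cxcl9 1508 and 602 CPM. In granulocytes, 2 of 3 tested inhibitor genes were past 2-fold lower in KD, Cxcl10 at 1496 and 100.6 CPM and Cxcl9 at 157 and 49.6 CPM. Of the activation list 2 of 3 were lower, among them Icam1 at 399.6 and 115 CPM. Of 19 signaling genes 3 were lower, among them Ptgs2 at 1070 and 367 CPM. The adaptor gene Gab1 was the 1 higher there, at 6.90 and 15.04 CPM, and 1 of 3 further receptor genes was higher. Over all granulocyte genes tested 6.4% were lower and 7.61% higher. The granulocyte sub-cluster led by Cxcl10 and Ifit2 was smaller in KD, and its part in these differences was not tested.

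Other ligands of these receptors were also measured. In endothelial cells Vegfc, the main ligand of VEGFR3, was 83.6 CPM (96 UMIs) in Ctrl and 50.04 CPM (215 UMIs) in KD, a log2 ratio of -0.74 (-1.09 to -0.38), while its receptor gene Flt4 was higher. Angpt2, which encodes an angiopoietin that binds TIE2, was 28.7 and 27.5 CPM. Ptprb, the phosphatase that acts on TIE2, was 2066 and 2803 CPM, a log2 ratio of 0.44 (0.38 to 0.50). In the signaling list, 1 of 20 tested genes was past 2-fold, the heat shock protein gene Hspb1, lower at 52.2 and 18.4 CPM. Of all endothelial genes tested, 3.57% were past 2-fold lower and 4.81% higher.

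The genes whose levels ran most like each member were sought over 20 values, 10 classes in each of 2 libraries, among 13439 genes. The values share libraries and are no independent samples, so the correlations are descriptions. For Vegfa they were Atf3 (Pearson r = 0.84), Ptgs2os (0.83) and Esr1 (0.78). For Tek they were Tspan7 (0.98), Shroom2 (0.98) and Gm30648 (0.98), and for Flt4 they included Ackr2 (0.97) and Kazn (0.97). For Kdr they were Enho (0.93), Stox2 (0.92) and Sema3f (0.91), and for Flt1 Lhfpl2 (0.93), Bvht (0.92) and Mindy4 (0.91). For Nrp1 they were Gm56862 (0.98), Bnip2 (0.85) and Pkdcc (0.85), and for Vegfb Sec31a (0.96), Dnlz (0.96) and Decr1 (0.95). Pgf was left out because it had under 200 UMIs.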

How the data were processed

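The authors made the deposited UMI counts per gene and cell barcode with Cell Ranger 7.1.0 on GRCm39 (per the submitters' notes) from droplet-based 3' libraries of CD45+ cells, and did not normalize them. Groups followed the hairpin in the labels. The 2 libraries held 67207234 (Ctrl) and 64444715 (KD) UMIs. The study's filters (at least 200 genes, at most 10% mitochondrial UMIs, 30000 UMIs and 6000 genes), as applied here, left 19999 of 21359 cells, a few more than the study states. These limits were the only treatment of doublets, and an alternative removed likely doublets by Scrublet (scanpy 1.11.5). Cells were clustered in Seurat 5.3.0 (R 4.3.3) with 2000 variable genes, 20 components and resolution 0.5, with the members and listed genes taken out of the variable genes, and named by at least 3 markers. Classes were sub-clustered likewise, those of granulocytes, dendritic, NK and tumor or fibroblast cells after values had been seen.

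Counts were summed per class and library. CPM have exact Poisson intervals, shares exact Clopper-Pearson intervals, and log2 ratios exact conditional binomial intervals, all at 95%. No test was made, as each group was 1 library. A count of 0 was bounded by 3 counts. For 2-fold counts, genes needed 20 UMIs and 0.5 CPM was added. For shares, cells were thinned to 1500 UMIs, leaving out 745 Ctrl and 593 KD cells. TMM factors came from edgeR 4.0.16. The ratio intervals were checked on simulated Poisson counts for macrophages and endothelial cells, where 95.57% and 96.45% held the set value. These counts had no spread between mice or cells, as the intervals assume, so only the calculation was checked.

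The text names the 8 members in every class, up to 5 higher and 5 lower listed genes past 2-fold with at least 50 UMIs in macrophages, granulocytes and endothelial cells, and the 3 genes most like each member. Some genes that this rule names are not reported here. Other genes were chosen after their values were seen. The members and lists were chosen with earlier results of these data known. Stab2, Clec4g and Gpr182 were picked as measures of endothelial RNA after their values had been seen.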

Additional observations from a re-analysis of the deposited data

How the results depend on the processing

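With 1 library per group, no value has a replicate check, and leaving out a replicate was not possible. No paired analysis was possible because each group had 1 library. The log2 ratio of Vegfa in macrophages was -0.76 with a stricter cell filter. Under that filter the cluster named Kupffer cells, led by Cd5l and Pf4, held 60 Ctrl and 596 KD cells. In the main clustering the Kupffer cluster held 48 and 83 cells. The part of this change of classes in the ratio was not tested. Over all cells the log2 ratio of Vegfa was -0.52 with TMM scaling, -0.88 as a mean over single cells and -0.85 after thinning to 1500 UMIs. At the Ctrl make-up of macrophage sub-clusters it went from -0.24 to -0.35 at resolution 1.0. As a mean over single cells, Nrp1 in macrophages was -0.71, and Kdr in endothelial cells was 0.14, where the main value of -0.03 had an interval that held 0. The sign of Kdr in endothelial cells thus changed, as did those of Vegfa in classical dendritic cells (-0.24 to 0.23) and Vegfb in T cells (-0.20 to 0.14), whose main intervals also held 0. The ratio of Flt1 in endothelial cells ranged from 0.17 to 0.30 over the alternatives to filter, classes, scaling and depth, and that of Flt4 there from 0.46 to 0.65, while holding the sub-cluster mix took Flt1 to 0.31 and Flt4 to 0.37 and 0.26. Of the values under alternatives for the main results, which include numbers of genes past 2-fold as well as ratios, 15 moved and 46 did not. Ratios were judged by the limits or width of the main counting interval, and gene numbers by their fold change from the main number.

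The numbers of genes past 2-fold moved with the filter on low counts. With at least 100 UMIs, 301 granulocyte genes were higher and 339 lower, and 119 endothelial genes were higher and 116 lower. With no filter, 1753 granulocyte genes were higher and 1424 lower, and 2064 endothelial genes were higher and 2223 lower. Fewer or more genes were tested, which the filter itself sets. Of the other ratios, 119 of 126 values under alternatives stayed within the main counting interval and 7 moved out of it. These were Flt1 in macrophages (-1.02 with the stricter filter, where the classes also changed), Nrp1 in T cells (-0.40 with classes set cell by cell, -0.46 after thinning), and those of dendritic cells given above. Leaving out sub-clusters that also held another class's markers was added after the values were seen and moved no ratio beyond its interval. Settings that change only the classes have no value for all filtered cells. Depth limits Pgf, Vegfb and all values in plasmacytoid dendritic and Kupffer cells.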
